A study of Mus musculus with 2 samples.

Results

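The genes of the mitochondrial respiratory chain and of the ATP synthase were chosen by symbol from the genes of the deposited count tables. Taken were all genes whose symbol begins with mt-Nd, mt-Co, mt-Atp or mt-Cyt, with Uqcr or with Atp5, the Nduf genes of the a, b, c, s and v series, Sdha to Sdhd, and the nuclear Cox subunit genes from Cox4 to Cox8, without pseudogenes. This gave 97 of 29453 genes, of which 13 are encoded by the mitochondrial genome and 84 by nuclear chromosomes. By complex, 42 members belong to complex I (35 of them nuclear), 4 to complex II, 9 to complex III (8 nuclear), 23 to complex IV (20 nuclear) and 19 to complex V (17 nuclear). Ndufa4 and Ndufa4l2 were counted with complex IV, and Atp5s and Atp5sl carry the symbol of the ATP synthase but are not subunits of it.

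The respiratory chain passes electrons from NADH (complex I) and succinate (complex II) through complex III to cytochrome c oxidase (complex IV) and pumps protons across the inner mitochondrial membrane, and the ATP synthase (complex V) uses the returning protons to make ATP. The subunits are made from both genomes, so that nuclear and mitochondrial transcripts have to be supplied together. Several subunits of complex IV have tissue isoforms, such as Cox6a2 and Cox7a1 of heart and skeletal muscle, Cox4i2, which is known from lung and from hypoxic cells, and Cox6b2 of testis, while Ndufa4l2 is the hypoxia-induced paralog of Ndufa4. Primitive red cells of the early embryo still have mitochondria, and the beating heart is among the earliest organs with a high demand for ATP.

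The study made chimeric mouse embryos from C57BL/6 host blastocysts and tdTomato-marked ES cells of 1 clone, which carry a 38 bp frameshift in exon 4 of Gata1, the master transcription factor of red cell development. Cells of 6 embryos were pooled and sorted into a tdTom+ fraction (Gata1-, from the ES cells) and a tdTom- fraction (wildtype, from the host), with 1 droplet-based scRNA-Seq library for each. The labels give E8.5 for the tdTom+ and E8.6 for the tdTom- sample, while the paper states E8.5 for the harvest of all 6 embryos, from which both fractions were sorted. By the paper the ES cell line was male, and it does not give the sex of the host embryos. With 1 library per fraction there is no replicate, so no test was run, and every interval given is an exact 95% interval that covers counting error only. Genotype, origin from the ES cells or from the host, sort, age label and library move together and cannot be told apart in any comparison of the fractions. Sex may differ between the fractions too and cannot be told apart from these.

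After doublet removal 8584 of 8981 tdTom+ and 8724 of 9252 tdTom- cells were kept. They fell into 32 clusters in which the members themselves had no part. Among them were 601 tdTom+ and 396 tdTom- cardiac-like cells, 41 and 1396 erythroid-like cells, and 1106 and 2 blood progenitor-like cells, and the 5853 and 6472 cells outside the cardiac, blood and endothelial classes are called other cells. Medians were between 14938 (neural-like, tdTom-) and 21751 spliced UMIs per cell over the groups named below. The 8 cardiac markers summed to 22903 and 25589 CPM in cardiac-like cells against 118 and 91.3 in other cells, and the 7 erythroid markers to 95283 CPM in tdTom- erythroid-like and 19827 in tdTom+ blood progenitor-like cells. Gata1 had 3603 spliced and 323 unspliced UMIs (133 CPM spliced) in tdTom- erythroid-like cells, against 783 and 1094 (32.0 CPM) in tdTom+ blood progenitor-like cells. The reporter had a row in the tables but 0 UMIs in both libraries, so it gave no check of the sort.

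The following promoters show the 250 bases before the transcription start of members that the results turn on (RefSeq, GRCm38.p6, 5′ to 3′ on the strand of the gene). Shown are the muscle isoform Cox7a1 (chr7:30183921-30184170, + strand) beside its widely used counterpart Cox7a2 (chr9:79759854-79760103, - strand), Cox6b2 (chr7:4753095-4753344, - strand) beside Cox6b1 (chr7:30626115-30626364, - strand), and Ndufb5 (chr3:32736813-32737062, + strand). Of 71 members tested in all 26 clusters compared between the fractions, Ndufb5 was the 1 whose interval excluded 0 in the same direction in each. Of all genes so tested 0.66% lay below and 1.71% above 0 in each cluster. Capitals mark a match, on either strand, to the GATA word AGATAA, to the NRF1 core word TGCGCA or to the ETS word CCGGAAG.
Cox7a1: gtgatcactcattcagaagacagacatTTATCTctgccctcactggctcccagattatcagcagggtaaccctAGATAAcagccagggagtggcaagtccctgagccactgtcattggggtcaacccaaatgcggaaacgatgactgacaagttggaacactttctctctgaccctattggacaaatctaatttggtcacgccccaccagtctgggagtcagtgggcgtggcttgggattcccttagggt
Cox7a2: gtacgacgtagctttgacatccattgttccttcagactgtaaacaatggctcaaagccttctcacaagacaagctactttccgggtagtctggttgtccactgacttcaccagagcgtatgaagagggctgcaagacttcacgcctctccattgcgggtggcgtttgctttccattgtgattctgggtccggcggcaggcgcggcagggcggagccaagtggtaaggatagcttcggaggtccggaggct
Cox6b2: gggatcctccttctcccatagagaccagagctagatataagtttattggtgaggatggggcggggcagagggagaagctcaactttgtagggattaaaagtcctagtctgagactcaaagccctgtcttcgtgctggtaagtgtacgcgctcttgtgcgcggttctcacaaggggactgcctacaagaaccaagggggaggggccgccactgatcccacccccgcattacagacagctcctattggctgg
Cox6b1: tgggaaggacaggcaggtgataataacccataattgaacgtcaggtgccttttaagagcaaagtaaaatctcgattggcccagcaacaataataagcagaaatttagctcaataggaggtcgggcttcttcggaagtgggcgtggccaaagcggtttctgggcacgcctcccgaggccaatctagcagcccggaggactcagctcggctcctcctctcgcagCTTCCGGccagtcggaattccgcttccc
Ndufb5: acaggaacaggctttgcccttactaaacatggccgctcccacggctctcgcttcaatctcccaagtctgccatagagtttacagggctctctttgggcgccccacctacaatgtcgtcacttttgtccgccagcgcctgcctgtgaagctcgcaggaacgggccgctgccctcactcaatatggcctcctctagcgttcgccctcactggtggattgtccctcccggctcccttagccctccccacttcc

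Cox7a1 held 2 matches to the GATA word, at 177 and 223 bases before the start, Cox6b1 held 1 match to the ETS word at 28 bases, and Cox7a2, Cox6b2 and Ndufb5 held none. Member promoters on chr18, where Ndufa2 and Atp5a1 lie, were left out, while the promoters of all genes include that chromosome. Of the 84 nuclear members 66 had a promoter in the set searched, with 71 promoters in all. The NRF1 core word, named after a regulator of nuclear respiratory genes, was found in 14 of them (19.7%) against 6.43% of all 32851 promoters, and the ETS word in 12 (16.9%) against 6.91%. The GATA word was found in 6 (8.45%) against 9.99% of all promoters, in Atp5g1, Atp5g3, Cox7a1, Cox7c, Ndufa12 and Ndufc2. None of the searched words contains another, and a match is a description of the letters and not of a bound site.

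How fully the members were counted was read from the total UMIs per gene that the authors' Cell Ranger tables give, over all cells. The spliced and unspliced UMIs of the velocyto tables came to 25.4% of the Cell Ranger UMIs over the 13 mitochondrially encoded members. For 7 of these 13 they came to under 1%: mt-Cytb of complex III and mt-Nd6 of complex I had 0 UMIs, and mt-Atp6, mt-Atp8, mt-Co2, mt-Co3 and mt-Nd4l had 857 between them with the other two. These 7 genes hold 62.3% of the Cell Ranger UMIs of the mitochondrially encoded members. Of the others, mt-Co1 was counted to 18.7%, mt-Nd3 to 34.8%, mt-Nd4 to 72.6%, mt-Nd2 to 97.0%, mt-Nd1 to 100.2% and mt-Nd5 to 112%. The mitochondrially encoded level in the velocyto tables is therefore mainly that of the complex I subunits mt-Nd1, mt-Nd2, mt-Nd4 and mt-Nd5 with a part of mt-Co1, and a Cell Ranger share is given beside it.

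The nuclear members were counted more evenly, with a median of 99.7% over the 83 that have a Cell Ranger value, against 105.7% over 10636 genes with at least 1000 UMIs. Under 50% lay 9 nuclear members, which are Atp5g2 (2.25%), Ndufb4 (3.29%), Atp5l (5.14%), Ndufs5 (19.8%), Cox7c (21.6%), Ndufa12 (25.3%), Cox7a2l (30.2%), Ndufa3 (48.5%) and Ndufs3 (49.8%). Over all genes 7.77% lay under 50%. A ratio of such a gene between groups compares the counted part only.

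**Figure D1:**
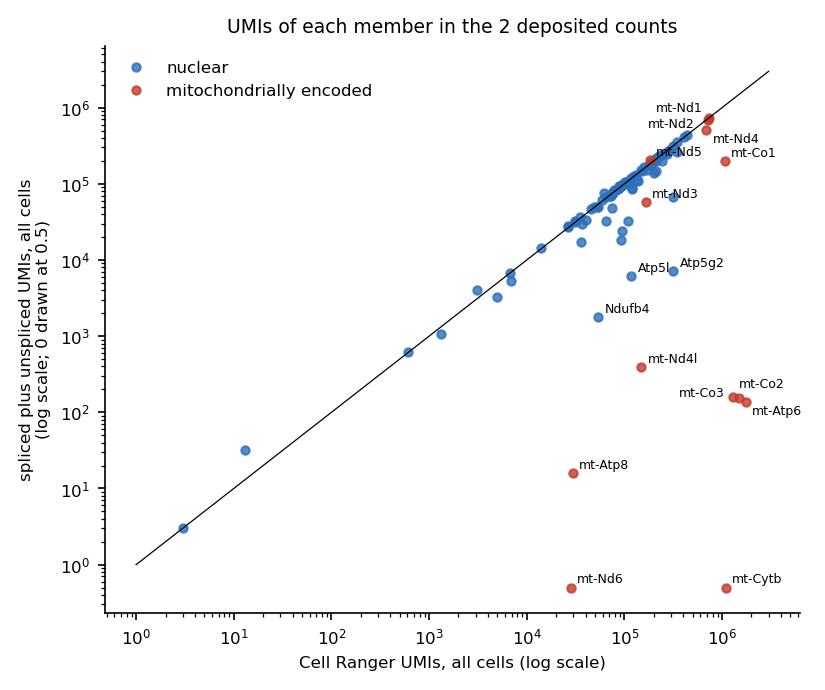
UMIs of each member in the velocyto tables (spliced and unspliced added, vertical axis) against its UMIs in the Cell Ranger tables (horizontal axis), both on log axes and over all cells. Most nuclear members lie on the diagonal, while 7 of the 13 mitochondrially encoded members lie at under 1% of their Cell Ranger UMIs.

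Respiratory chain transcripts took a larger share of the transcriptome in cardiac-like and in blood cells than in the other cells as 1 group. The nuclear members held 2.52% of spliced UMIs in tdTom+ and 2.51% in tdTom- other cells, 3.08% (3.07 to 3.09) and 3.12% (3.10 to 3.13) in cardiac-like cells, 3.16% in tdTom- early and 3.02% in tdTom- later erythroid-like cells, and 3.27% in tdTom+ blood progenitor-like cells. Endothelial-like cells (2.53% and 2.57%) and neural-like cells (2.50% and 2.46%) were near the other cells. Cardiac-like cells of both fractions and all blood groups thus lay above the other cells by more than the counting error.

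The mitochondrially encoded members were distributed differently. They held 0.647% of spliced UMIs in tdTom+ and 0.648% in tdTom- other cells, 0.700% (0.695 to 0.705) and 0.738% (0.731 to 0.745) in cardiac-like cells, but 1.04% in both the early (1.03 to 1.04) and the later (1.04 to 1.04) tdTom- erythroid-like cells and 0.969% in tdTom+ blood progenitor-like cells. The lowest values were those of neural-like cells, with 0.505% and 0.516%. The Cell Ranger share of mitochondrial UMIs had the same order for these groups, at 1.5% and 1.51% in neural-like, 1.90% and 1.89% in other, 2.16% and 2.24% in cardiac-like, 2.74% in blood progenitor-like, 2.91% in early and 3.12% in later erythroid-like cells. Red cells and tdTom+ blood progenitor-like cells were thus high in both genomes' transcripts, while cardiac-like cells stood apart mainly in the nuclear ones by the velocyto counts. By the Cell Ranger share cardiac-like cells were above the other cells as well, with 2.16% and 2.24% against 1.90% and 1.89%. How much the genomes differ in cardiac-like cells thus depends on the count used. The mitochondrially encoded level was not particular to red cells. In tdTom+ and tdTom- myeloid-like cells mt-Nd2 had 2985 and 2847 CPM, against 3484 in later erythroid-like and 1875 in tdTom- other cells. There mt-Nd1 had 3208 and 3060 CPM, against 1985 in tdTom- other cells.

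**Figure D2:**
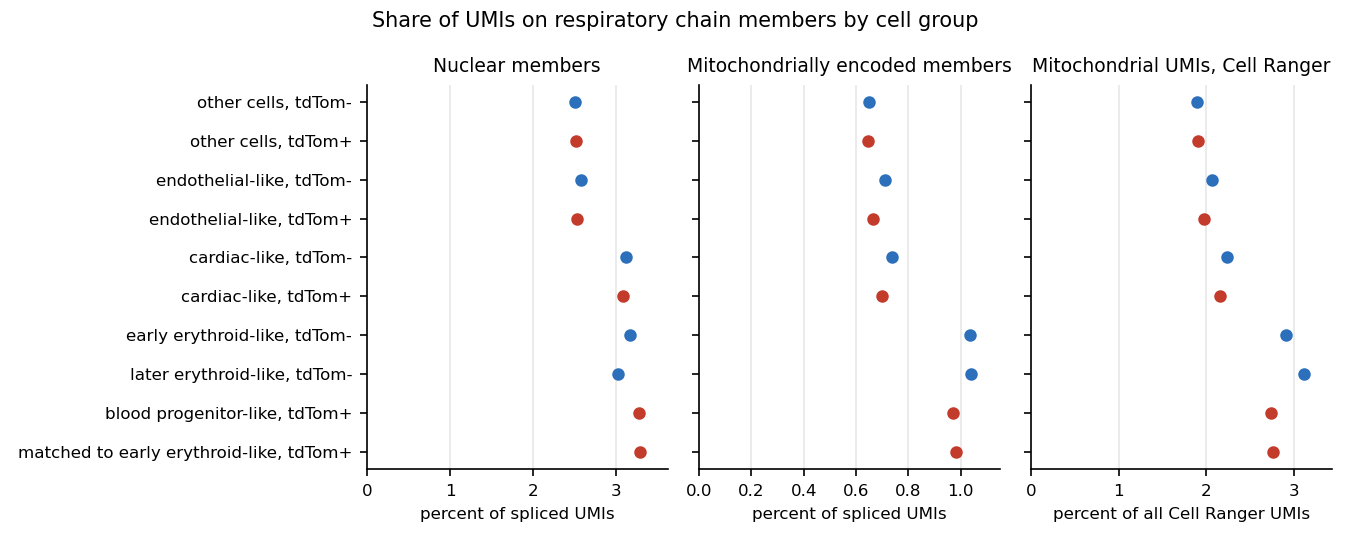
Percent of spliced UMIs on the nuclear members, percent on the mitochondrially encoded members, and percent of Cell Ranger UMIs on mitochondrial genes in 10 groups of cells (red tdTom+, blue tdTom-, bars 95% counting intervals). Cardiac-like and blood groups lie above the other cells in the nuclear share, and the blood groups lie highest in both mitochondrial shares.

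The complexes shared in these differences unequally. Complex V took 0.825% of spliced UMIs in tdTom- other, 1.08% in cardiac-like and 1.04% in later erythroid-like cells, complex IV 0.681%, 0.852% and 0.824%, complex III 0.227%, 0.272% and 0.285%, and nuclear complex I 0.730%, 0.854% and 0.825%. Complex II, which also works in the TCA cycle, took 0.0462% in other and 0.0591% in cardiac-like cells, but 0.0451% in later erythroid-like cells. It was the 1 complex whose share in later erythroid-like cells was not above that of the other cells. In early erythroid-like cells complex II was above the other cells, with 508 against 462 CPM. Globin transcripts are part of these totals, and the shares of the complexes without them were not calculated.

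Over the 32 clusters, the nuclear share was highest, at 3.78%, in a cardiac-like cluster led by the sarcomere genes Myl3, Actc1 and Myl7 (321 cells), and lowest at 2.39% in a cluster led by Pyy and Pax9, with a median of 2.55%. The other cardiac-like clusters, led by Sfrp5 and Wnt2 and by Dpysl3 and Lefty2, had 2.83% and 2.63%. The mitochondrially encoded share was highest at 1.18% in 69 cells (7 tdTom+ and 62 tdTom-) led by Apoa1, Rbp4, Ttr and Afp, genes of secreted carrier proteins. These cells belong to the other cells, and their nuclear share of 3.44% was the next highest after the Myl3-led cluster. The mitochondrially encoded share was lowest at 0.365% in 384 cells led by Ebf1 and Tbx1. Across the 32 clusters the nuclear and mitochondrially encoded shares had a Spearman rho of 0.635, and the velocyto and Cell Ranger mitochondrial shares one of 0.982. Both are descriptions, since the clusters share libraries and depth.

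Cardiac-like cells were compared with the other cells of the same library, once in each fraction. In tdTom+ cells the interval of the log2 fold lay above 0 for 72 of 81 nuclear members with at least 100 UMIs, and below 0 for 2, with a median log2 fold of 0.26. Of all genes 20% lay above and 41.2% below 0. In tdTom- cells it lay above 0 for 68 of 81 and below for 1, with a median of 0.27, against 19.4% and 36% of all genes. The medians over all genes that passed the same minimum were -0.15 and -0.14. The medians of the complexes were close together in both fractions, from 0.22 (I) over 0.24 (III), 0.29 (IV) and 0.32 (V) to 0.38 (II) in tdTom+ cells, and from 0.24 to 0.36 in tdTom- cells. The shift was small and shared by nearly the whole list.

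Few members passed a 2-fold difference, taken as a log2 fold of at least 1 with an interval that excludes 0. In tdTom+ cells 2 of 88 members were higher, against 5.56% of all genes, and 1 was lower, against 11.2%. In tdTom- cells 2 of 88 were higher (6.02% of all genes) and 0 lower (10.9%). All of them encode tissue isoforms of complex IV: Cox6a2 and Cox7a1 were higher in both fractions, and Cox6b2 was lower in tdTom+ cells.

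Cox6a2 (chr7:128205435-128206366), the heart and muscle isoform of subunit 6a, had 300 UMIs (29.7 CPM) in tdTom+ cardiac-like cells and 277 (43.3 CPM) in tdTom- cardiac-like cells, against 6 and 5 UMIs (0.0597 and 0.0495 CPM) in the other cells. The log2 folds were 8.96 (7.82 to 10.4) and 9.77 (8.53 to 11.4). The cardiac-like cells thus held nearly all UMIs of the gene, although the other cells were far more numerous. A UMI of Cox6a2 was found in 20.6% (17.5 to 24.1) and 23.7% of cardiac-like cells, at medians of 16238 and 15208 spliced UMIs per cell. In neural-like cells, at medians of 16561 and 14938, it was found in 0 of 988, which allows up to 0.304% of cells with a UMI and sets no limit on cells that express the gene, and in 0.0612%.

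Cox7a1 (chr7:30184171-30186030), the muscle isoform of subunit 7a, had 233 UMIs (23.1 CPM) in tdTom+ and 109 (17.1 CPM) in tdTom- cardiac-like cells, against 151 (1.5 CPM) and 164 (1.62 CPM) in other cells. The log2 folds were 3.94 (3.64 to 4.25) and 3.39 (3.03 to 3.75). It was found in 25.5% and 19.7% of cardiac-like and in 3.85% and 3.12% of neural-like cells at the depths given for Cox6a2. Its unspliced UMIs were higher in cardiac-like cells too, with log2 folds of 2.81 and 3.15. Unspliced Ndufc2, a complex I subunit, was lower in tdTom- cardiac-like cells, with 7 against 262 UMIs, while its spliced log2 fold was 0.11.

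Cox6b2 (chr7:4751792-4753094), the testis isoform of subunit 6b, was the lowest member in cardiac-like cells, with 15 UMIs against 440 in tdTom+ cells (1.49 and 4.37 CPM, log2 fold -1.56, -2.41 to -0.82) and 23 against 694 in tdTom- cells (log2 fold -0.93, -1.60 to -0.34). The next differences were far smaller. They were those of Ndufv3, an accessory subunit of the NADH-binding part of complex I (0.61 in tdTom+), Sdhd, a membrane anchor of complex II (0.59), Ndufa4l2 (0.59 and 0.64), Atp5g3, which encodes the c-ring subunit of the ATP synthase (0.67 in tdTom-), and Atp5c1, its rotating gamma subunit (0.58). Ndufa7 was lower in tdTom+ cells (-0.10). Of 7 mitochondrially encoded members tested, 4 were above and 1 below 0 in each fraction, with medians of 0.11 and 0.07, and mt-Co1, the catalytic core of complex IV, was the one below (-0.08 and -0.06).

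These differences were larger in the Myl3-led cluster alone. Against the other cells, the median log2 fold of the nuclear members was 0.57 in tdTom+ and 0.56 in tdTom- cells, with 75 and 72 of 81 above 0 (18.9% and 16.8% of all genes), while the medians of all genes were -0.30 and -0.32. At least 2-fold higher were 5 members in each fraction, against 8.06% and 7.99% of all genes: Cox6a2 (log2 fold 10.5 and 11.2), Cox7a1 (5.06 and 4.40), Ndufa4l2 (1.08 and 1.36) and Sdhd (1.12 and 1.02) in both, with Ndufv3 (1.05) in tdTom+ and Atp5g3 (1.04) in tdTom- cells. Shown to be lower was 1 member in each fraction, Cox6b2 with 3 and 4 UMIs, against 17.7% and 16.5% of all genes. In tdTom+ cells mt-Nd4l, which velocyto hardly counted, had 0 UMIs against 128, but with a limit of 3 UMIs this is at least 1.39-fold lower and so not shown to pass 2-fold.

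**Figure D3:**
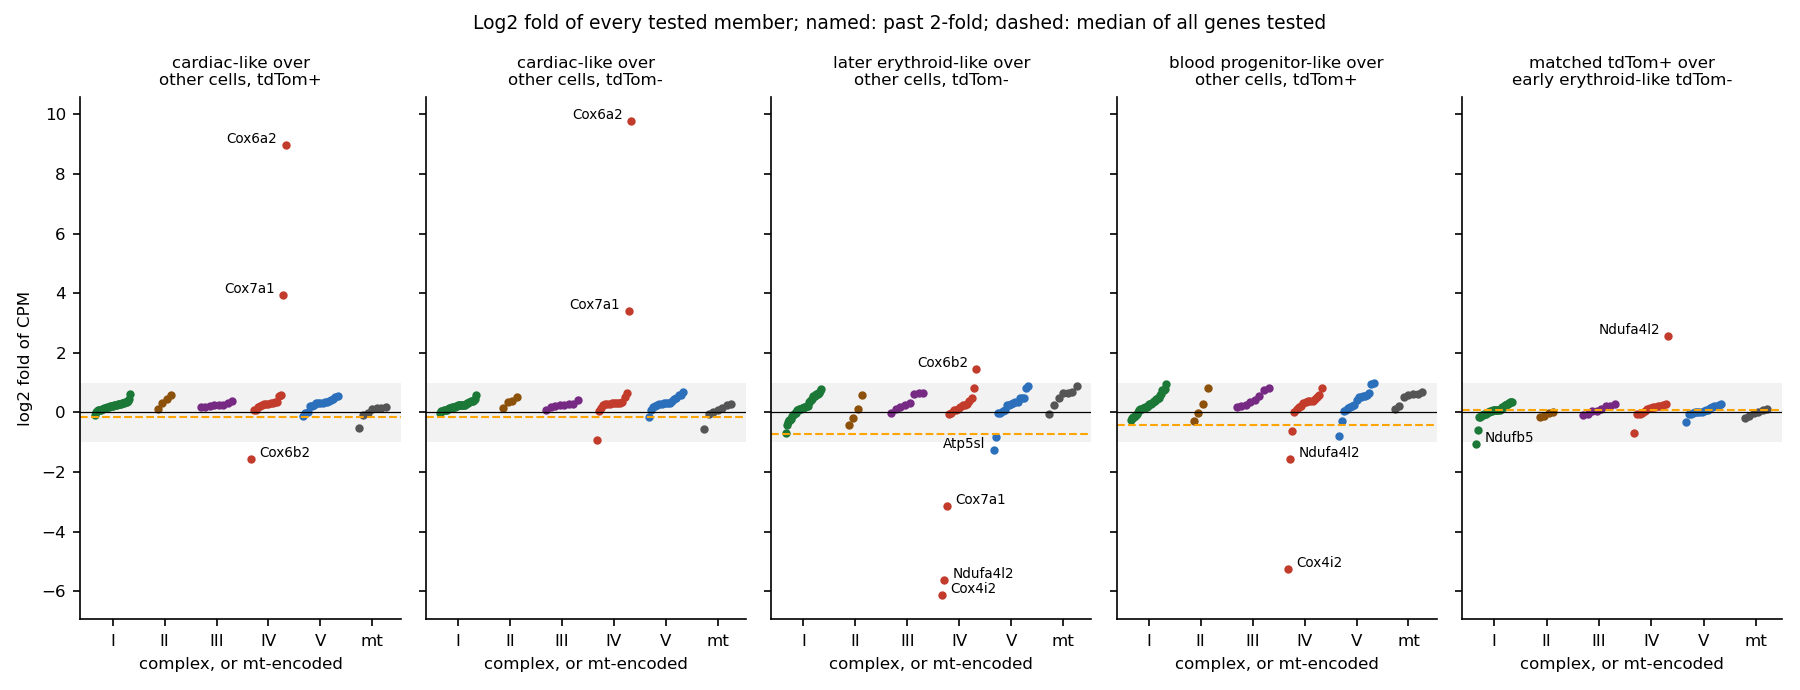
Log2 fold of each member with at least 100 UMIs in 5 comparisons, by complex and with the mitochondrially encoded members apart (grey band, less than 2-fold; dashed line, median of all genes). Members past 2-fold are named: Cox6a2 and Cox7a1 are the highest in cardiac-like cells, and Cox4i2 and Ndufa4l2 the lowest in later erythroid-like cells.

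Within isoform pairs the balance moved with the cell class, as far as the UMIs of each gene were counted. Cox6a2 made up 8.76% (7.83 to 9.75) of the Cox6a1 and Cox6a2 UMIs in tdTom+ and 12% (10.7 to 13.4) in tdTom- cardiac-like cells, 23.6% in the tdTom- cells of the Myl3-led cluster, and 0.0247% and 0.0198% in other cells. In later erythroid-like cells it had 0 of 6150 UMIs, which allows up to 0.0488%. Cox7a1 made up 2.56% and 2.12% of its pair with Cox7a2 in cardiac-like and 0.213% and 0.255% in other cells. The broadly used isoform thus remained the larger part of each pair in cardiac-like cells. Cox7b2, Cox8b and Cox8c had 13, 1 and 3 spliced UMIs in all cells together, so nothing can be said of them at this depth.

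By cluster, Cox6a2 had 98.0 CPM (89.9 to 107) in the Myl3-led cluster and was found in 59.2% of its cells, against 3.29 and 2.64 CPM in the other cardiac-like clusters and at most 0.160 CPM in each of the remaining 29. Cox7a1 had 43.6 CPM there, 17.6 CPM in the Apoa1-led cluster, and 10.0 and 7.91 CPM in the other cardiac-like clusters. The fractions differed in these isoforms, as Cox6a2 had 84.6 CPM (tdTom+) and 117 CPM (tdTom-) in the Myl3-led cluster, while Cox7a1 had 50.1 and 34.2 CPM. Taking all cardiac-like clusters together, the log2 ratio of the fractions (tdTom+ over tdTom-) was -0.54 (-0.78 to -0.30) for Cox6a2 and 0.44 (0.10 to 0.78) for Cox7a1. Of the cardiac-like cells, 185 of 601 tdTom+ and 136 of 396 tdTom- were in the Myl3-led cluster.

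Cox4i2 (chr2:152753916-152765039) and Ndufa4l2 (chr10:127509274-127517154) had another distribution. Cox4i2 was highest at 178 CPM in a cluster of 1041 cells led by Tbx4, Phlda2 and Pitx1, followed by clusters led by Tac2 and Wnt6 (155 CPM) and by Wnt6 and Bhlha9 (139 CPM). Ndufa4l2 was highest at 129 CPM in the Ebf1-led and Tbx1-led cluster, which had the lowest mitochondrially encoded share, followed by 94.8 CPM in the Tbx4-led cluster and 56.2 CPM in the Myl3-led cluster. The Tbx4-led cluster was thus high in both genes, and the Ebf1-led cluster in Ndufa4l2. Both fractions had these levels, with 169 and 195 CPM of Cox4i2 in the Tbx4-led cluster and 114 and 143 CPM of Ndufa4l2 in the Ebf1-led cluster.

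**Figure D4:**
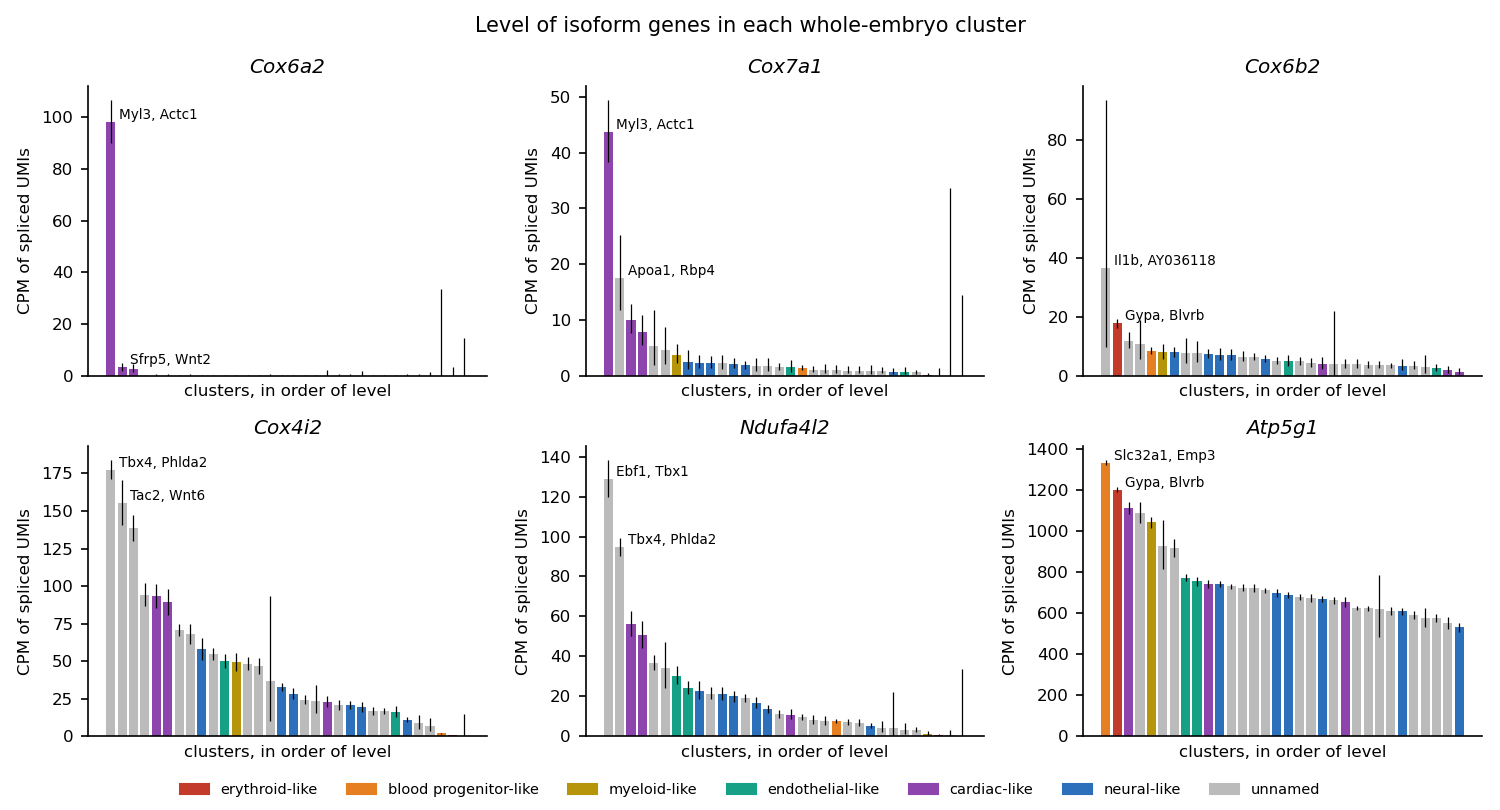
CPM of Cox6a2, Cox7a1, Cox6b2, Cox4i2, Ndufa4l2 and Atp5g1 in each of 32 clusters, coloured by class, with 95% counting intervals. Cox6a2 and Cox7a1 peak in the Myl3-led cardiac-like cluster, Cox4i2 and Ndufa4l2 are near 0 in the erythroid-like cluster, and Atp5g1 is highest in the blood clusters.

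In red cells the question was how the chain stands against other cells and between erythroid-like sub-clusters of lower and higher globin share. Later erythroid-like cells of the tdTom- fraction (1117 cells) were set against the tdTom- other cells, which also serve as the reference of the early erythroid-like and of the cardiac-like cells, so these comparisons are not independent. The interval lay above 0 for 56 and below 0 for 15 of 80 nuclear members, against 17.3% and 71.4% of all genes, with a median log2 fold of 0.19. Over all genes the median was -0.73. The medians were 0.29 for complex III and complex V, 0.16 for complex I, 0.15 for complex IV and -0.03 for complex II. Globin transcripts took 11.2% of the spliced UMIs of these cells and 0.0996% of those of the other cells, and fewer transcripts of other genes and a larger share of a few genes cannot be told apart in such ratios.

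The mitochondrially encoded members were further above the other cells, with 6 of 7 above 0 and a median log2 fold of 0.65. mt-Nd2 had 3484 CPM against 1875 (log2 fold 0.89), mt-Nd3 232 against 144 (0.69), mt-Nd4 2124 against 1347 (0.66), mt-Nd1 3107 against 1985 (0.65), mt-Nd5 787 against 563 (0.48) and mt-Co1 668 against 560 (0.25). All of these are subunits of complex I except mt-Co1, which was the smallest of the differences. Since mt-Co1 was counted to 18.7% and mt-Nd3 to 34.8%, and mt-Co2, mt-Co3, mt-Cytb and mt-Atp6 were hardly counted, the complexes cannot be compared here. In tdTom+ blood progenitor-like cells the same 6 genes were above the tdTom+ other cells, from 0.68 for mt-Nd2 to 0.22 for mt-Co1.

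At least 2-fold higher in later erythroid-like cells was 1 of 87 members, against 4.46% of all genes, and 4 were lower, against 42.8%. With folds centred on the median of all genes the count was 36 higher, against 13.5% of all genes on that scale, and 3 lower, against 31.2%, so the split depends on the scale. Cox6b2 was the higher one, with 409 UMIs against 694 (18.9 and 6.87 CPM, log2 fold 1.46, 1.28 to 1.64; 1.11 without a Cdkn1a-led sub-cluster). Lower were Cox4i2 with 14 against 4599 UMIs (0.646 and 45.6 CPM, log2 fold -6.14), Ndufa4l2 with 11 against 2548 (0.508 and 25.2 CPM, -5.63), Cox7a1 with 4 against 164 (-3.14) and Atp5sl, which despite its symbol encodes an assembly factor of complex I, with 161 against 1799 (-1.26). The lower members thus included the alternative isoforms Cox4i2, Ndufa4l2 and Cox7a1, while Cox4i1, Ndufa4 and Cox7a2 did not pass 2-fold.

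Among nuclear members under 2-fold, the highest were Atp5l, subunit g of the ATP synthase (0.89, counted to 5.14%), Cox8a, a small subunit of complex IV (0.81), and Atp5g1, a c-ring gene (1152 CPM against 659, 0.81). The lowest of them was Atp5g2 (-0.81, counted to 2.25%). Atp5g1 made up 68.4% of the UMIs of the Atp5g genes in later and 71.2% in early erythroid-like cells and 70.4% in tdTom+ blood progenitor-like cells, against 60.5% to 61.1% in other and 54.8% to 57.6% in cardiac-like cells. Atp5g1 to Atp5g3 encode the same mature protein. Atp5g2 was counted too little to enter these shares, which in effect set Atp5g1 against Atp5g3. Over all cells Cell Ranger gave 346204 UMIs of Atp5g1, 317238 of Atp5g2 and 149502 of Atp5g3.

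Early erythroid-like cells (279 cells, globin 5.43%) shared the lower isoforms Cox4i2, Ndufa4l2 and Cox7a1 with the later ones, but not the higher member. At least 2-fold higher was 1 member, against 4.41% of all genes, which was Atp5g1 with 1394 against 659 CPM (log2 fold 1.08). Lower were 3, against 38% of all genes: Cox4i2 with 5 UMIs (-5.64), Ndufa4l2 with 7 (-4.30) and Cox7a1 with 2 (-2.15, -5.21 to -0.28). Cox6b2 had 75 UMIs and a log2 fold of 0.997, just below the limit. Sdhd (0.94), the accessory complex I subunits Ndufa5 (0.89) and Ndufb10 (0.87) followed, and Ndufa7 was among the lowest (-0.54).

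Early were the cells of the erythroid-like sub-cluster with the lowest globin share, and later those of all other erythroid-like sub-clusters. The split thus rests on globin, which is part of the UMI total, and not on a measured stage of the cells. From early to later erythroid-like cells the members differed little. None of 83 was past 2-fold in either direction, against 0.636% of all genes higher and 1.09% lower. The interval lay above 0 for 7 and below 0 for 29 of 77 nuclear members, shares near those of all genes (5.85% and 33.1%), and their median log2 fold was -0.06 against -0.13 over all genes. With globin UMIs left out of the total the median was 0.03, so its sign is not settled. Higher in the later cells were Cox6b2 (0.46, 0.10 to 0.84, but 0.11 without the 62 tdTom- cells of a Cdkn1a-led sub-cluster described next), the complex I subunits Ndufs3 (0.28), Ndufb2 (0.22), Ndufs5 (0.20) and Ndufa6 (0.19), and lower were Sdhd (-0.34), Atp5g1 (-0.27), Ndufb10 of complex I (-0.25), and Cox7a2l, a factor of supercomplex assembly (-0.24). The mitochondrially encoded share was 1.04% of spliced UMIs in both, while the Cell Ranger share given above was higher in the later cells. Globin UMIs are part of these totals.

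Cox6b2 stood out in a sub-cluster led by the p53 targets Cdkn1a and Ccng1, which was named erythroid-like and held 38 tdTom+ and 62 tdTom- cells. The name is uncertain for its tdTom+ cells, since the 41 tdTom+ erythroid-like cells had 11748 CPM of erythroid markers, less than the 19827 of blood progenitor-like cells, and 468 CPM of blood progenitor markers. At a resolution of 2 the Cdkn1a-led cells formed a blood progenitor-like sub-cluster (31 tdTom+ and 5 tdTom- cells) and an erythroid-like one (0 and 58). Cox6b2 had 52 UMIs (81.9 CPM, 61.2 to 107) in its tdTom+ cells and 103 UMIs (98.7 CPM, 80.6 to 120) in its tdTom- cells, and was found in 57.9% and 58.1% of them. In the other erythroid-like sub-clusters Cox6b2 had 13.7 to 15.6 CPM, and in the tdTom+ blood progenitor-like sub-clusters 4.93 to 7.27 CPM. Both fractions of the Cdkn1a-led sub-cluster thus lay above the other erythroid-like and the blood progenitor-like sub-clusters, although globin took 1.18% of UMIs in its tdTom+ and 14.6% in its tdTom- cells. Without this sub-cluster Cox6b2 made up 2.74% rather than 3.42% of the Cox6b UMIs of the later erythroid-like cells.

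In cells with a UMI of Cox6b2, later erythroid-like cells (24.9% of cells, median 18797 spliced UMIs) were above neural-like cells (8.5% in tdTom+ and 11.3% in tdTom-), and cardiac-like cells were below them (2.50% and 5.56%). For Cox4i2 the shares were 1.25% in later erythroid-like, 3.53% in tdTom+ blood progenitor-like, and 48.4% and 35.5% in other cells. For Ndufa4l2 they were 0.985%, 14.2%, 21.9% and 21.2%. Neural-like cells had Cox4i2 in 28.8% and 19.0% and Ndufa4l2 in 15.7% and 18.6% of cells, so the shares of both genes in later erythroid-like cells were below them. No class known to lack both genes was at hand, and how many of the few UMIs in red cells, on which the folds of these genes rest, were background was not measured.

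The tdTom+ fraction had few erythroid-like cells, so its blood progenitor-like cells were set against the tdTom+ other cells, which are also the reference of the tdTom+ cardiac-like cells. The interval lay above 0 for 63 and below 0 for 11 of 80 nuclear members, against 24.4% and 61.1% of all genes, with a median log2 fold of 0.30 against -0.41 over all genes, and the median of the mitochondrially encoded members was 0.59. No member was at least 2-fold higher, against 5.54% of all genes, and 2 of 87 were lower, against 33.1%. These were Cox4i2 with 40 against 6247 UMIs (-5.25) and Ndufa4l2 with 196 against 2387 (-1.57). The highest were Atp5g1 (1362 against 691 CPM, 0.98), Ndufb10 (0.96), Atp5l (0.94), Sdhd (0.81) and Cox8a (0.81), and Atp5sl (-0.79), the iron-sulfur subunit gene Sdhb (-0.29) and Atp5g2 (-0.28) were below 0.

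To compare the genotypes at a like stage, tdTom+ blood cells were matched to their nearest tdTom- cells, and 1249 of them fell to the early erythroid-like group. These carried 17879 CPM of erythroid markers against 52149 in the 279 early tdTom- cells, 468 CPM of blood progenitor markers against 125, and 123 CPM of myeloid markers against 4.21, with all 4 myeloid markers tested past 2-fold. The matched groups thus still differ in their markers, and the part of this in the values was not tested. The nuclear share was 3.28% against 3.16% and the mitochondrially encoded share 0.982% against 1.04%. The median log2 fold of 78 nuclear members was 0.07, against 0.09 over all genes, with 32 above and 13 below 0, against 29.6% and 14.9% of all genes. The median of the members was thus close to that of all genes.

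At least 2-fold higher in the matched tdTom+ cells was 1 of 84 members, against 6.65% of all genes, and 1 was lower, against 2.67%. Ndufa4l2 was the higher one, with 210 UMIs (7.54 CPM) against 7 (1.28 CPM) and a log2 fold of 2.56 (1.49 to 3.89). It was 0.969% of the Ndufa4 and Ndufa4l2 UMIs in the matched and 0.182% in the early tdTom- cells, both below the other cells of either fraction (3.05% and 3.54%). Ndufb5, an accessory subunit of the membrane arm of complex I, was the lower one, with 233 against 483 CPM (-1.05, -1.11 to -0.98). Other members below 0 were Cox6b2 (-0.71), Ndufa12, an accessory subunit of the matrix arm of complex I (-0.58), Atp5o, the stalk subunit OSCP of the ATP synthase (-0.33), and mt-Nd2 (-0.19), and above 0 were Ndufa6 (0.35), Ndufc1 (0.34), Ndufs5 (0.33) and Ndufa7 (0.32).

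Ndufb5, Ndufa12 and Atp5o were lower in tdTom+ cells of other classes too, so the fractions were compared outside the named blood classes. The other cells still held a small cluster led by Il1b and Cd74, with 16 tdTom+ and 64 tdTom- cells. They also held clusters almost of the tdTom- fraction alone, led by Apoa1 (7 tdTom+ and 62 tdTom- cells) and by Rhox5 (1 and 75). The part of this make-up in the ratios of the summed other cells was not tested. Among the other cells the myeloid markers Laptm5 and Spi1 were past 2-fold higher in the tdTom+ fraction, and which cells carried them was not tested. In other cells, Ndufb5 (chr3:32737057-32751559) was counted at 187 CPM (18811 UMIs) in the tdTom+ and at 387 CPM (39065 UMIs) in the tdTom- library, which is a log2 ratio of -1.05 (-1.07 to -1.02). In cardiac-like cells the values were 215 CPM (2168 UMIs) and 483 CPM (3088 UMIs), with a log2 ratio of -1.17 (-1.25 to -1.09). It was the 1 member at least 2-fold lower in each, of 87 and 85 tested, against 1.77% and 0.648% of all genes, and 0 members were 2-fold higher, against 0.363% and 0.264%. These counts of members were near the shares of all genes. Ndufb5 thus had about the same ratio in blood, heart and the rest of the embryo.

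The ratio was read in each of 26 clusters with at least 20 cells of both fractions. For Ndufb5 the interval lay below 0 in 26 of 26, with log2 folds from -1.26 to -0.87 and a median of -1.05. Of 71 members tested in every one of these clusters it was the 1 with this pattern, against 0.66% of the 1817 genes so tested, and 0 members lay above 0 in all, against 1.71% of genes. A count of 1 member is too small to be set apart from the share of all genes. Ndufa12 was below 0 in 25 of the 25 clusters where it was tested (from -0.79 to -0.21, counted to 25.3%), and Atp5o in 26 of 26 (from -0.48 to -0.01), with intervals below 0 in 23 and 24. Atp5k, subunit e of the ATP synthase, was the nearest to the opposite pattern, with log2 folds from 0.14 to 0.39 and an interval above 0 in 25 of 26. It was 1 of 8 members above 0 by value in all 26 clusters, among them Cox7a2 and Atp5j2 with an interval above 0 in 24 each, Ndufa4 in 22 and Uqcr11 of complex III in 20, while Atp5d, the delta subunit of the ATP synthase, had an interval below 0 in 22. How many of the 1817 genes lay above 0 by value in all 26 clusters was not counted, so the 8 members have no background. Ndufb5 was counted to 101% of its Cell Ranger UMIs over both libraries together.

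**Figure D5:**
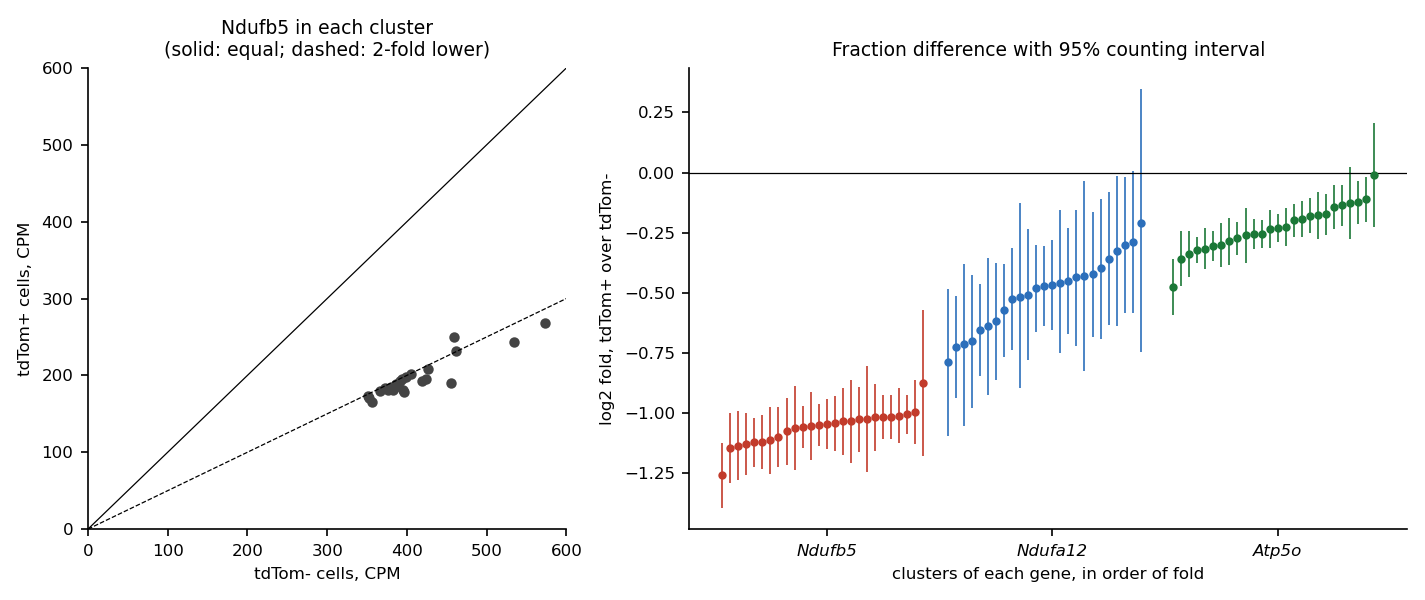
Left, CPM of Ndufb5 in tdTom+ against tdTom- cells in each cluster with at least 20 cells of both fractions; right, log2 fold of tdTom+ over tdTom- of Ndufb5, Ndufa12 and Atp5o in these clusters. The points of Ndufb5 lie between -1.26 and -0.87, while those of Ndufa12 and Atp5o lie between -0.79 and -0.01.

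Other members differed between the fractions by small amounts in both directions. In other cells 30 of 80 nuclear members lay above and 27 below 0, against 18.5% and 33.3% of all genes, so that the share below was near the background, with a median log2 fold of 0.01 against -0.04 over all genes, and in cardiac-like cells 19 and 19 of 79, against 11.2% and 17.3%, with a median of -0.02 against -0.04. Cox4i2 was higher in the summed tdTom+ cells (0.45 in other and 0.30 in cardiac-like cells), but by cluster its median was 0.20, with 5 of 24 clusters negative and 11 intervals above 0, and the Tbx4-led cluster, where it was highest, held 682 tdTom+ and 359 tdTom- cells. Also higher were mt-Nd3 (0.24 and 0.35), Ndufa5 (0.24 and 0.20) and Atp5k (0.24 and 0.27), with Atp5j2, subunit f of the ATP synthase, in other cells (0.20). Lower were Sdhc, a membrane anchor of complex II (-0.19 and -0.22), and Cox6b2 in other cells (440 against 694 UMIs, -0.65). Erythroid markers summed to 164 CPM in tdTom+ and 933 CPM in tdTom- other cells. Of the 32 clusters, Cox6b2 was highest in the Il1b-led cluster of the other cells (36.5 CPM, 16 tdTom+ and 64 tdTom- cells, median of 1097 spliced UMIs per cell). The part of either in the value of Cox6b2 was not tested.

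Unspliced UMIs were rare for these genes. The mitochondrially encoded members, whose genes have no introns, had 0 unspliced UMIs in every group. For the nuclear members 2.37% to 2.78% of UMIs were unspliced over the tdTom- early and later erythroid-like, the tdTom+ blood progenitor-like, and the cardiac-like, endothelial-like and other cells of both fractions, and 3.20% in the 41 tdTom+ erythroid-like cells. The median over members was 0.991% and 0.958% in other, 0.731% and 0.641% in cardiac-like, 0.652% in early and 0.828% in later erythroid-like and 0.756% in blood progenitor-like cells. The medians over all genes were 21.6% and 21.9%, 16.6% and 15.5%, 14.2%, 17.9% and 17.4% in the same order. Among the members, the highest shares over all cells were those of Atp5g2 (39.7%, counted to 2.25%), Cox6b2 (32.1%), Atp5s (31.5%), Uqcrq of complex III (29.6%), Uqcrh (27.1%) and Cox7a1 (26.5%), with Cox7b2 at 19 of 32 UMIs.

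Against the unspliced total, 13 of 64 members were at least 2-fold higher in later erythroid-like than in other cells, against 10.9% of all genes, and 1 was lower, against 26.5%. Cox6b2 was the highest, with 275 unspliced UMIs against 226 (log2 fold 3.16), followed by Ndufb4 (1.67), Ndufa12 (1.41) and the ubiquinol-binding subunit gene Uqcrq with 3092 against 8706 UMIs (1.39). Atp5o was the lower one, with 179 against 2685 UMIs (-1.03), while its spliced UMIs were above the other cells (0.29). In tdTom+ blood progenitor-like cells 8 of 65 members were higher, against 7.93% of all genes, and 2 lower, against 24.2%. Again Atp5o was lower, with 55 unspliced UMIs against 1912 (-2.72) beside a spliced log2 fold of 0.23, as was Cox4i2 (-3.89), and Cox6b2 (1.66), Uqcr11 (1.48), Cox7b (1.32) and Cox8a (1.25) were higher. Matched tdTom+ cells had 71 unspliced UMIs of Atp5o against 55 in the far fewer early tdTom- cells, which gave -2.05 on the log2 scale (-2.58 to -1.51). The layers of Atp5o thus went in opposite directions in later erythroid-like and in blood progenitor-like cells. For Ndufb5 there were 35 unspliced UMIs in tdTom+ and 71 in tdTom- other cells, which gave -0.93 on the log2 scale (-1.56 to -0.33), near that of its spliced UMIs.

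Other genes of mitochondrial energy supply were described by the same rule. In cardiac-like cells the electron carriers and related genes outside the symbol rule (Cyc1, Cycs, Ndufab1 and Atpif1) had medians of 0.27 and 0.29. The 16 TCA cycle genes had medians of 0.24 and 0.27. In both lists 0 were past 2-fold, where 5.56% and 6.02% of all genes were higher and 11.2% and 10.9% lower. The medians of all genes were -0.15 and -0.14, and those of the 14 genes of mitochondrial DNA upkeep and expression -0.31 and -0.30. By the same background, the 46 assembly factors tested had medians of -0.02 and 0.10, with 1 higher (Cox20) and 1 lower in each fraction (Lyrm7 in tdTom+, Atpaf1 in tdTom-). The 8 biogenesis regulators tested had medians of -0.19 and -0.18. The interval lay above 0 for 3 of them in each fraction, against 20% and 19.4% of all genes. It lay below 0 for 4 (tdTom+) and 3 (tdTom-), against 41.2% and 36%. Past 2-fold were 2, both higher. Ppargc1a, a coactivator of mitochondrial biogenesis, had 99 UMIs against 23 in the tdTom+ fraction (log2 fold 5.42) and 71 against 47 in the tdTom- fraction (4.58). Its relative Ppargc1b had 1.94 and 1.66. Of 19 glycolysis genes, the muscle enolase gene Eno3 (2.01 and 2.28), Hk1 (1.48 and 1.75) and Pfkp were higher in both, Slc2a3, a glucose transporter, was lower in both (-2.29 and -1.76), and Aldoc was lower in tdTom+ cells, with medians of 0.13 and 0.06.

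In later erythroid-like cells 4.46% of all genes were at least 2-fold higher and 42.8% lower. The carriers and related genes had a median of 0.53, with Atpif1, the inhibitor of the ATP synthase, higher (1.11). The TCA cycle genes had 0.22 with Idh3a higher (1.09). The assembly factors had 0.08, with 2 of 46 higher (Cox17 and Ecsit), a share near that of all genes. The mitochondrial expression genes had -0.01 with Polg lower (-1.17), and the biogenesis regulators -0.21 with Ppargc1b higher (1.32). Of the 19 glycolysis genes 9 were lower, a share near the 42.8% of all genes, and their median was -0.99 against -0.73 over all genes. Among the lower ones were Ldhb (-5.55), Slc2a3 (-3.85), Slc2a1 (-1.45) and Pkm (-1.21), and Hk1, the hexokinase of red cells, was higher (2.62). From early to later erythroid-like cells 0 genes of these lists passed 2-fold, where 0.636% of all genes were higher and 1.09% lower. Blood progenitor-like tdTom+ cells had medians of 0.43 for the TCA cycle, 0.32 for assembly factors and -0.58 for glycolysis, against -0.41 over all genes, and 6 of 19 glycolysis genes were lower, a share near the 33.1% of all genes. Higher there, against 5.54% of all genes, were Hk1 (3.09), Ppargc1b (2.72), Idh3a (1.22) and 4 of 46 assembly factors (Bcs1l, Cox17, Cox20 and Ecsit), and Polg was lower (-1.57). In the matched comparison Slc2a1, Slc2a3 and the complex I assembly gene Acad9 were 2-fold lower in tdTom+ cells, and 0 genes of the lists were higher, where 2.67% of all genes were lower and 6.65% higher.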

How the data were processed

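Droplet-based scRNA-Seq was analysed from 1 tdTom+ and 1 tdTom- library. Per the submitters' processing notes, the authors used Cell Ranger 3.0.2 and the mm10 build, and they separated spliced from unspliced molecules with velocyto. The authors deposited raw counts of UMIs for each gene and cell in a spliced and an unspliced table that were not normalized, and every value was checked to be whole. They also deposited quality metrics with total counts per cell and the mitochondrial percent of each cell, and total counts per gene from Cell Ranger. Metrics were present for 18239 cells and counts for 18233, and 0 per-sample columns were left unused. The authors' cell types were not used here.

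Clustering used scanpy 1.11.5 with leidenalg 0.10.2, scikit-learn 1.9.0 and igraph 0.11.9, and sums and intervals were made in Python 3.11.15 (pandas 2.3.3, scipy 1.17.1, numpy 2.4.6), with figures from matplotlib 3.10.9. Scrublet was run on each library, and called doublets were left out together with clusters of over 50% called cells, and 18 barcodes occur in both libraries. Cells were clustered by the Leiden method at resolution 1.5 (2500 variable genes, 50 components, 20 neighbours), and the haemato-endothelial cells again at resolution 1 (2000 genes, 30 components, 15 neighbours), without 217 genes that include all members. A cluster was named X-like from at least 3 raised markers of a fixed list, and the neural-like group holds the clusters with at least 6 raised neural markers. The erythroid-like sub-cluster with the lowest globin share was called early, and all others were called later. The tdTom+ blood cells were assigned to the most frequent sub-cluster of their 15 nearest tdTom- cells.

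For each group of cells the UMIs of a gene were added up and given as CPM of spliced UMIs (unspliced folds against the unspliced total). Ratios have exact conditional, shares Clopper-Pearson and levels Poisson 95% intervals for counting error only, and droplet UMIs of 1 library are no replicates. A gene was tested with at least 100 UMIs over both groups, and against 0 UMIs a limit of 3 was used. The calculations were tested on simulated data. Named were the mitochondrially encoded members, the isoform families, and the 5 members per direction with the largest log2 fold whose interval excludes 0; cluster-wise and unspliced values were named after they were seen. A gene that this rule names is not reported here. The members, gene lists and comparisons were chosen with earlier results of these data known. Alternatives changed the denominator, the layers added, depth, doublets, resolution and the UMI minimum. Leaving out members counted to under 50%, the Cdkn1a-led sub-cluster, or all but the Myl3-led cluster was added after seeing the data, as were the early erythroid-like and blood progenitor-like comparisons with other cells.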

Additional observations from a re-analysis of the deposited data

Results flagged for a closer look

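A total of 7 mitochondrially encoded members were nearly absent from the velocyto layers that all comparisons rest on but had many UMIs in the authors' Cell Ranger totals, which were otherwise used only as a check. Cell Ranger gave 1746682 UMIs of mt-Atp6 and 29622 of mt-Atp8 (complex V), 1493378 of mt-Co2 and 1300999 of mt-Co3 (complex IV), 1099319 of mt-Cytb (complex III), and 148377 of mt-Nd4l and 28099 of mt-Nd6 (complex I), over both libraries together. The velocyto layers held 136, 16, 153, 160, 0, 392 and 0 UMIs of these genes in the same order. Their levels by cell class are not analysed here, since the Cell Ranger totals are not split by cell, and the cause was not tested.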

How the results depend on the processing

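No paired analysis was possible because each fraction has 1 library, so that the pool of embryos they share gives 1 pair. Of 200 recalculated values of the counts, medians and shares below, 150 stayed within counting error or 1.5 times the count. Another 488 values were log2 folds of single genes and shares in the tdTom+ and early erythroid-like groups, and of these 387 stayed so. The cause of the other differences was not tested except where stated. With folds centred on the median of all genes, the medians of the nuclear members were 0.41 (tdTom+) and 0.42 (tdTom-) in cardiac-like over other, 0.08 in later over early erythroid-like, 0.92 in later erythroid-like over other, -0.02 in matched and 0.05 in tdTom+ over tdTom- other cells, 39 members (36 higher, 3 lower) were past 2-fold in later erythroid-like over other cells, and the log2 fold of Ndufb5 from early to later erythroid-like cells reversed from -0.12 to 0.02. Without globin UMIs the medians were 0.03 (later over early) and 0.36 (later over other), and the later erythroid-like shares 1.17% (mitochondrially encoded) and 3.4% (nuclear). With spliced and unspliced UMIs added, the median of later erythroid-like over other was 0.27, the mitochondrially encoded shares of tdTom- other, cardiac-like and later erythroid-like cells were 0.555%, 0.632% and 0.941%, the nuclear ones 2.21%, 2.73% and 2.8%, and the isoform shares 2.88% (Cox7a1, cardiac-like) and 5.57% (Cox6b2, later erythroid-like). With cells thinned to 5000 UMIs, 1 member was past 2-fold in tdTom- cardiac-like cells (Cox6b2, since Cox6a2 and Cox7a1 no longer reached 100 UMIs) and 1 in the matched group, the median of later erythroid-like over other was 0.24, the shares in that order 0.657%, 0.756% and 1.06%, and 2.5%, 3.09% and 3.03%, and Ndufa4l2 made up 0.16% of its pair in later erythroid-like cells. With doublets kept, cardiac-like shares were 0.748% and 3.09% and later erythroid-like shares 1.03% and 3.0%. At a resolution of 2, the median of tdTom+ over tdTom- other cells was 0.04, and shares were 0.651% and 2.52% (other), 3.1% (nuclear, cardiac-like) and 3.04% (nuclear, later erythroid-like). With 20 UMIs as the minimum, 2 members were 2-fold lower in tdTom+ cardiac-like cells, Cox6b2 joining Ndufb5. For tdTom+ cells, the mitochondrially encoded shares of other cells were 0.668% when thinned and 0.68% at a resolution of 2, the nuclear ones 2.24% with unspliced UMIs added and 2.57% at a resolution of 2, Cox4i2 made up 4.58% of its pair at a resolution of 2, and the cardiac-like mitochondrially encoded share was 0.603% with unspliced UMIs added and 0.709% with doublets kept. In the Myl3-led cluster alone, 7 members in tdTom+ cells (6 without mt-Nd4l, at 0 UMIs and bounded at 1.39-fold) and 6 in tdTom- cells were past 2-fold, the medians were 0.57 and 0.56, the shares 0.762% and 3.81% (tdTom+) and 0.791% and 3.75% (tdTom-), and Cox6a2 and Cox7a1 made up 17.3% and 4.33% (tdTom+) and 23.6% and 3.51% (tdTom-) of their pairs. Without the Cdkn1a-led sub-cluster the later erythroid-like mitochondrially encoded share was 1.05% and Cox6b2 made up 2.74% of its pair. The log2 fold of Ndufb5 between the fractions ranged from -1.29 to -1.10 in cardiac-like, from -1.05 to -1.01 in other and from -1.14 to -1.05 in matched cells. Depth limits the isoforms of few UMIs most, and with 1 library per fraction differences between tdTom+ and tdTom- cells cannot be checked over replicates.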
